A study of Homo sapiens with 4 samples.

Results

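The genes of hyaluronan synthesis, breakdown and binding were followed in DAOY cells, a line established from a human medulloblastoma of the cerebellum. The set holds 9 of the 20363 genes in the count table. They were chosen by symbol from these data, with earlier results in view, and are HAS1, HAS2 and HAS3 (synthases), HYAL1 and HYAL2 (hyaluronidases), HMMR (a receptor), VCAN (a hyaluronan-binding proteoglycan), and ITIH5 and TNFAIP6 (a heavy chain and the enzyme that transfers heavy chains). ITIH5 was picked for its rise with SAG, so its SAG difference is given as a description with no test. RNA was sequenced in 4 libraries, 1 per condition and with no replicate. They were ZNF521 cells with SAG, ZNF521 cells with DMSO, control (CTL) cells with SAG and CTL cells with DMSO. The methods describe them both as enriched for poly-A RNA and as depleted of ribosomal RNA with a total RNA kit. SAG is an agonist of SMO, the membrane protein that switches on the Sonic hedgehog (SHH) pathway, and DMSO is its vehicle. ZNF521 cells carried a lentiviral vector that expresses ZNF521, a zinc finger transcription co-factor, together with EGFP, by which transduced cells were sorted, and the methods name both a human and a mouse construct without saying which was used here. CTL cells are called WT in the deposited description and carriers of an empty control vector in a legend of the study, so whether the ZNF521 comparison also holds an effect of transduction cannot be told apart. The SAG dose of the sequenced cells is not given in the sources used here.

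Hyaluronan is a long, unsulfated sugar polymer of the extracellular matrix. Synthases in the plasma membrane build it from UDP-glucuronic acid and UDP-N-acetylglucosamine and push it out of the cell, hyaluronidases and lysosomal enzymes cut it down, and receptors, link proteins and proteoglycans such as versican hold it in place. It is a main component of the brain matrix, where it binds proteoglycans of the versican and aggrecan family.

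Total counts ran from 12294833 to 16314685 per library. The library of CTL cells with DMSO stood apart: its log2 deviations from the gene means had an SD of 0.273 in 9161 genes with a mean of 200 or more normalized counts, against 0.126 to 0.142 in the other libraries. A normalized count is the raw count divided by the size factor of its library. The vector was seen in the ZNF521 mRNA, with normalized counts of 2072 and 2013 in ZNF521 cells with SAG and DMSO, against 751.1 and 713.7 in the CTL cells with SAG and DMSO. SHH signalling was seen in GLI1, with 318.1 and 323.7 in ZNF521 and CTL cells with SAG, against 44.2 and 75.4 in ZNF521 and CTL cells with DMSO. Of 6 markers of the granule neuron lineage, 3 (ZIC1, ZIC2 and PAX6) exceeded 50 normalized counts in every library, while ATOH1 had 1 raw count in each and BARHL1 had 0 in 3 libraries. The summed normalized counts were 737.8 to 842.4 for this lineage, 216.5 to 230.2 for 3 astrocyte markers, 15.2 to 22.1 for 4 immune markers, 65.0 to 86.8 for 3 endothelial markers and 24.8 to 51.5 for 2 epithelial markers. The highest sum was that of 6 mesenchymal markers, at 20036 to 45060. In bulk RNA, fewer cells of a type and less RNA per cell cannot be told apart.

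Tests came from edgeR's quasi-likelihood fit over 14970 genes (10 counts or more in 2 or more libraries), with the other factor as block, and p values were adjusted by Benjamini-Hochberg over all of them. The fit leaves 1 residual degree of freedom, which holds any SAG difference that is unlike between the 2 kinds of cells. Such a difference thus counts as error. The prior of 11.7 degrees of freedom is borrowed from other genes. The p values come from these single libraries and measure no spread between cultures. Of the 9 members, 8 were tested and TNFAIP6 was below the count minimum. An adjusted p of 0.05 was passed by 0 of the 7 without ITIH5 for SAG and by 0 of the 8 for ZNF521, with edgeR and also with DESeq2 and limma. Among all genes 0.0401% passed it for SAG and 0.00668% for ZNF521 in edgeR. The study's own threshold, an unadjusted p of at most 0.05, is given beside it. The study applied it to a paired t test on genes kept by its own fold change filter. Here it was applied to edgeR p values, so a gene that passes here need not have passed there. Ratios of 2 libraries carry an exact 95% interval (Clopper-Pearson) that covers counting error only.

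**Figure D1:**
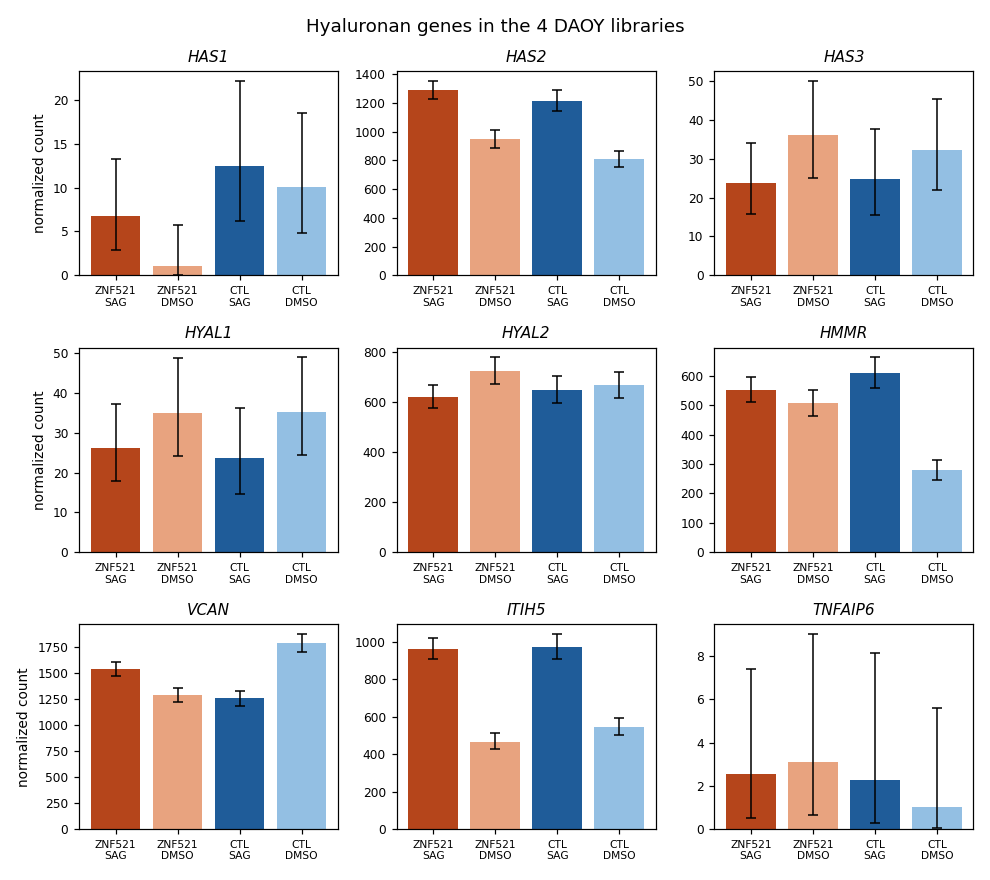
Normalized counts of the 9 members (y axis, each panel with its own scale from 0) in the 4 libraries (x axis), with bars for the single library of each condition and exact Poisson 95% intervals for counting error only. HAS2 and ITIH5 were highest in both SAG libraries, HMMR was lowest in CTL cells with DMSO (279.4), and HAS1 and TNFAIP6 stayed below 13 normalized counts.

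HAS2, the main synthase of large hyaluronan in many tissues, supplied nearly all synthase reads and was higher with SAG in both kinds of cells. Its normalized count was 1289 in ZNF521 cells with SAG, against 945.6 in ZNF521 cells with DMSO. In CTL cells it was 1215 with SAG, against 810.2 with DMSO. Both SAG libraries thus lay above both DMSO libraries. The ratio of SAG over DMSO was 1.36 (95% interval 1.26 to 1.48) in ZNF521 cells and 1.499 (1.37 to 1.64) in CTL cells. Their ratio, 0.909, had a counting interval that holds 1 (0.804 to 1.03). The log2 fold change with SAG was 0.52 (standard error 0.149), with an unadjusted p of 0.00443 and an adjusted p of 0.391 from edgeR's quasi-likelihood test. The gene lies on chromosome 8 of hg38 from 121612116 to 121641440, on the minus strand. HAS2-AS1, an antisense RNA that overlaps it by 2148 bases, had 34 and 40 raw counts in ZNF521 and CTL cells with SAG, against 24 and 22 in ZNF521 and CTL cells with DMSO. The libraries were stranded, but the strand setting of the counting is not stated, so reads of the pair may be shared. HAS2 transcripts are 37.2% GC, and with offsets for the GC content of each library the log2 fold change was 0.25 (unadjusted p = 0.0894 from edgeR). Without ZNF521 cells with SAG it was 0.47 (unadjusted p = 0.0652), and without CTL cells with DMSO it was 0.40 (unadjusted p = 6.01e-04).

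HAS1 and HAS3, the other synthases, were scarce. HAS1 had 8 and 1 raw counts in ZNF521 cells with SAG and DMSO, against 11 and 10 in the CTL cells with SAG and DMSO. HAS3, a synthase known for shorter chains, had 23.6 and 24.8 normalized counts in ZNF521 and CTL cells with SAG, against 36.0 and 32.2 in ZNF521 and CTL cells with DMSO. HAS3 was thus below both DMSO values in both SAG libraries, and its log2 fold change was -0.50 (standard error 0.327, unadjusted p = 0.154, adjusted p = 0.553 from edgeR), and each of its ratios had an interval that holds 1. HAS2 held 97.7% of the synthase reads in ZNF521 cells with SAG (exact 95% interval 96.8 to 98.4), 96.2% in ZNF521 cells with DMSO (94.8 to 97.3), 97.0% in CTL cells with SAG (95.9 to 97.9) and 95.05% in CTL cells with DMSO (93.4 to 96.4). These shares are not corrected for transcript length. HAS1 lies on chromosome 19 from 51713112 to 51723991 and HAS3 on chromosome 16 from 69105653 to 69118719.

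HYAL2, a hyaluronidase anchored to the cell surface that cuts long chains into fragments, was the breakdown gene with most reads of its family and varied little. It had 622.6 and 724.4 normalized counts in ZNF521 cells with SAG and DMSO. CTL cells had 649.6 with SAG and 668.5 with DMSO. Both SAG libraries were below both DMSO libraries, by a ratio of 0.860 (0.774 to 0.954) in ZNF521 cells and 0.972 (0.868 to 1.09) in CTL cells. The log2 fold change with SAG was -0.13 (standard error 0.154, adjusted p = 0.764 from edgeR), and with GC offsets it turned to 0.098. HYAL1, the lysosomal hyaluronidase that takes fragments further, was much lower, at 26.2 and 23.7 normalized counts in ZNF521 and CTL cells with SAG, against 35.0 and 35.2 in ZNF521 and CTL cells with DMSO. Its groups did not overlap, yet the difference of -0.49 on the log2 scale (standard error 0.322) had a p of 0.154 and an adjusted p of 0.553 from edgeR. HYAL2 took 77.9% and 77.6% of the reads of 5 hyaluronidases in ZNF521 cells with SAG and DMSO, against 76.2% and 73.5% in the CTL cells with SAG and DMSO. The 2 genes are neighbours on the minus strand of chromosome 3, HYAL1 from 50299890 to 50312381 and HYAL2 from 50317790 to 50322782. TUSC2, annotated on the same strand, overlaps HYAL2 by 2756 bases and had 637 to 890 raw counts per library, so the counts of this pair are uncertain.

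HMMR, a hyaluronan receptor that also binds the mitotic spindle and is made mostly by dividing cells, was higher with SAG in CTL cells and about level in ZNF521 cells. Its normalized count was 551.8 in ZNF521 cells with SAG and 507.3 in ZNF521 cells with DMSO, against 610.1 in CTL cells with SAG and 279.4 in CTL cells with DMSO. A single library, CTL cells with DMSO, was low, at 0.502 of the mean of the other 3. The ratio of SAG over DMSO was therefore 1.09 (0.966 to 1.23) in ZNF521 cells and 2.18 (1.89 to 2.53) in CTL cells. The ratio of ZNF521 over CTL cells was 0.904 (0.806 to 1.02) with SAG and 1.82 (1.56 to 2.11) with DMSO. The SAG ratio in ZNF521 cells was 0.498 of that in CTL cells, with a counting interval of 0.414 to 0.60 and no replicate to test the difference. Over both kinds of cells the log2 fold change with SAG was 0.61 (standard error 0.211, unadjusted p = 0.0129, adjusted p = 0.391 from edgeR). Without CTL cells with DMSO it was 0.19 (unadjusted p = 0.117), without CTL cells with SAG 0.49 (unadjusted p = 0.119), and with GC offsets 0.35 (unadjusted p = 0.0297), where the SAG and DMSO libraries overlapped. HMMR transcripts are 36.2% GC. For ZNF521 the log2 fold change was 0.33 (standard error 0.211, unadjusted p = 0.142, adjusted p = 0.962 from edgeR), and it was -0.20 without CTL cells with DMSO. HMMR lies on the plus strand of chromosome 5 from 163460203 to 163491941.

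The window before the RefSeq start of HMMR was searched because GLI proteins, the transcription factors of the SHH pathway, bind a known motif. The letters GACCACCCA, or on the other strand TGGGTGGTC, stood in 0.216% of 27305 RefSeq windows of 250 bases and in 0 of the 8 windows found for members. The shorter core CCACCCA, or on the other strand TGGGTGG, stood in 8.02% of windows. It stood 3 times in HMMR with a pair of matches that overlap, 1 time in HYAL1 and in no other window of a member. No window was found for HAS2, so HAS2 was not searched. The CHR element of cell cycle genes, searched as TTTGAA or on the other strand TTCAAA, stood in 13.6% of windows, 2 times in HMMR and 1 time in HAS1. The 2 stretches of HMMR with the core are given for the plus strand of GRCh38.p14, with the core in capitals, at chr5:163460410-163460439 and chr5:163460571-163460600. GENCODE places both in the first exon of an HMMR transcript. The windows of HYAL1 (chr3:50303575-50303824) and HAS3 (chr16:69107290-69107539) also lie inside the GENCODE bounds of their genes. Those of HYAL2, VCAN and ITIH5 do so in part. A match is a description of these letters and not of binding.
HMMR first stretch: cgggaatgacTGGGTGGGTGGggcggggaa
HMMR second stretch: ctaacgccggggTGGGTGGggaatgtgggg

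ITIH5, a heavy chain of the inter-alpha-trypsin inhibitor family that can be bound to hyaluronan, was about as high in both SAG libraries and about as low in both DMSO libraries. It had 963.5 normalized counts in ZNF521 cells with SAG and 973.2 in CTL cells with SAG, against 467.2 in ZNF521 cells with DMSO and 544.8 in CTL cells with DMSO. The ratio of SAG over DMSO was 2.06 (1.85 to 2.30) in ZNF521 cells and 1.79 (1.60 to 1.99) in CTL cells. The log2 fold change with SAG was 0.94 (standard error 0.156), 0.93 with GC offsets and 1.04 without CTL cells with DMSO. These values describe the gene that was picked for them. For the vector, which was not used to pick it, the log2 fold change was -0.13 (standard error 0.155, unadjusted p = 0.432, adjusted p = 0.988 from edgeR). ZNF521 over CTL was 0.990 (0.905 to 1.08) with SAG and 0.857 (0.755 to 0.973) with DMSO.

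ITIH5 lies on the minus strand of chromosome 10 from 7559270 to 7666998, and the 250 bases before its RefSeq start were 82.8% GC. They hold the same run of 12 bases 7 times, a copy number that 0.205% of all windows reach for any run of that length. The part upstream of the GENCODE start, chr10:7666999-7667216 of GRCh38.p14, is given for the minus strand with the repeated run in capitals, the last copy lacking its final base. Neither the longer GLI motif nor its core stood in it.
ITIH5: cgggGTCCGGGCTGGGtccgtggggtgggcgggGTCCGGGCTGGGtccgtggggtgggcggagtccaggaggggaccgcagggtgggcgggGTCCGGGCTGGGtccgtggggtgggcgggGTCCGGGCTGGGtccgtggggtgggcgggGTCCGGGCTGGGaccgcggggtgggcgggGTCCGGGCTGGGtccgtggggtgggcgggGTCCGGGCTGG

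TNFAIP6, which links heavy chains such as that of ITIH5 to hyaluronan, was barely read. It had 3 and 3 raw counts in ZNF521 cells with SAG and DMSO, against 2 and 1 in the CTL cells with SAG and DMSO. No library exceeded 3 counts, so no difference was detectable at this depth. PTX3, which helps to hold heavy chains on hyaluronan, had 379.0 to 472.5 normalized counts.

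VCAN, which encodes versican, a large proteoglycan that binds hyaluronan through one end and other matrix proteins through the other, differed with SAG in opposite directions in the 2 kinds of cells. Its normalized count was 1536 in ZNF521 cells with SAG and 1287 in ZNF521 cells with DMSO, against 1255 in CTL cells with SAG and 1788 in CTL cells with DMSO. SAG over DMSO was 1.19 (1.11 to 1.28) in ZNF521 cells and 0.702 (0.651 to 0.757) in CTL cells. ZNF521 over CTL was 1.22 (1.14 to 1.32) with SAG and 0.720 (0.669 to 0.774) with DMSO. The ratio of the SAG ratios, 1.70, had a counting interval of 1.53 to 1.89, and with 1 library per condition the difference was not tested. Averaged over the other factor little was left, with log2 fold changes of -0.13 for SAG (standard error 0.182, adjusted p = 0.809) and -0.10 for ZNF521 (standard error 0.182, adjusted p = 0.989) from edgeR. Without CTL cells with DMSO these were 0.11 and 0.18. VCAN was highest in that library, at 1.32 times the mean of the other 3. The summed normalized counts of 6 mesenchymal markers (COL1A1, COL1A2, COL3A1, PDGFRB, DCN and LUM) were high there too, mainly in the collagens, while LUM was lower there (69.4) than in the other libraries (127.6 to 141.0). The sums came to 20036 and 20875 in ZNF521 cells with SAG and DMSO, and to 22122 and 45060 in CTL cells with SAG and DMSO. Of the 6, 5 exceeded 50 in every library and none was at 0. Their part in the VCAN values was not tested. VCAN lies on chromosome 5 from 83471618 to 83582303.

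**Figure D2:**
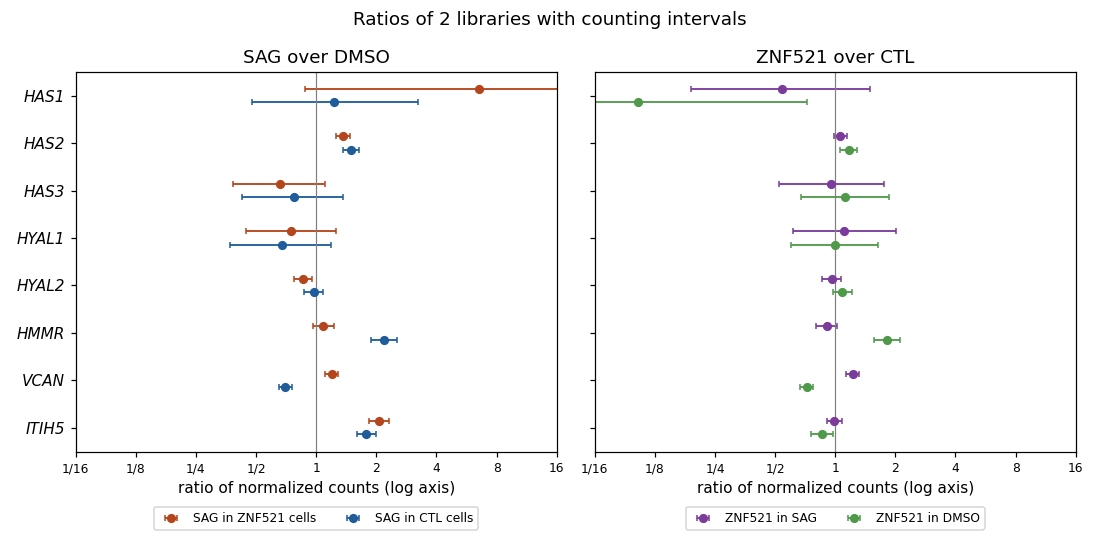
Ratios of normalized counts of 2 libraries (log axis) for the 8 tested members, SAG over DMSO on the left and ZNF521 over CTL on the right, with exact 95% intervals for counting error, of which those of HAS1 run beyond the axis. HAS2 and ITIH5 lay above 1 for SAG in both kinds of cells, and VCAN lay on opposite sides of 1 (1.19 and 0.702).

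Across the members, SAG gave 2 of the 7 tested without ITIH5 an unadjusted p of at most 0.05, HAS2 and HMMR, both higher, and 0 lower. Among all genes 6.21% were higher at that threshold and 5.12% were lower. Both SAG libraries lay above both DMSO libraries for 2 of the 7 and below them for 3, against 25.4% and 22.7% of all genes. The median log2 fold change of the 7 was -0.13, against 0.001 over all genes tested. With GC offsets that median turned to 0.098, and 1 member lay above and 2 below. The shares of all genes under these offsets were not computed. For ZNF521, an unadjusted p of at most 0.05 was reached by 0 of 8 members in the higher direction and 1 in the lower, against 2.36% and 3.11% of all genes. This was HAS1, whose log2 fold change was -1.505 (standard error 0.66). HAS1 reached the count minimum through the CTL libraries alone, so it had to differ, no p is given for it, and without it the count is 0. Without ZNF521 cells with DMSO its value was -0.72. Its ratio of ZNF521 over CTL was 0.544 (0.190 to 1.49) with SAG and 0.102 (0.00236 to 0.720) with DMSO, where it rests on 1 count. Both ZNF521 libraries lay above both CTL libraries for 0 of the 8 members and below them for 1, against 13.3% and 13% of all genes. The 1 below was again HAS1, which had to differ. The median of the 8 was 0.03, against -0.003 over all genes.

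Leaving out the SAG ratios of ITIH5, which chose that gene, 12 of 34 ratios of 2 libraries over the 9 members had a counting interval without 1. They were 3 for SAG in ZNF521 cells (HAS2, HYAL2, VCAN), 3 for SAG in CTL cells (HAS2, HMMR, VCAN), 1 for ZNF521 with SAG (VCAN) and 5 for ZNF521 with DMSO (HAS1, HAS2, HMMR, VCAN, ITIH5). The comparisons share libraries, and CTL cells with DMSO enter 8 of the 12. The share of all genes with such an interval was not computed, so the count cannot be read as particular to the members.

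Per kilobase of transcript, HYAL2 had the highest mean level of the members, 354 normalized counts per kilobase with a range of 331 to 385. HAS2 followed at 251 (191 to 304), HMMR at 162 (92.7 to 202), VCAN at 119 (102 to 145) and ITIH5 at 110 (69.6 to 145). HYAL1 was at 14.8 (11.7 to 17.3), HAS3 at 6.96 (5.64 to 8.59), HAS1 at 3.59 (0.488 to 5.89) and TNFAIP6 at 1.56 (0.707 to 2.17). The ranges of HAS2 and HMMR, HMMR and VCAN, VCAN and ITIH5, HAS3 and HAS1, and HAS1 and TNFAIP6 overlapped, and those of the other neighbours in this order did not. Among other genes of the pathway, C1QBP, a hyaluronan-binding protein found mostly in mitochondria, was at 5070 per kilobase, and GUSB, a lysosomal enzyme that removes single sugars, was at 693. CD44, the main cell surface receptor for hyaluronan, was at 615 and LAYN, another receptor, at 291. LYVE1, a receptor of lymphatic endothelium, had 0 raw counts in 3 libraries and 1 in ZNF521 cells with SAG. STAB1 and STAB2, receptors of liver endothelium, had 5 to 16 raw counts in every library, and STAB2 reached the count minimum.

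**Figure D3:**
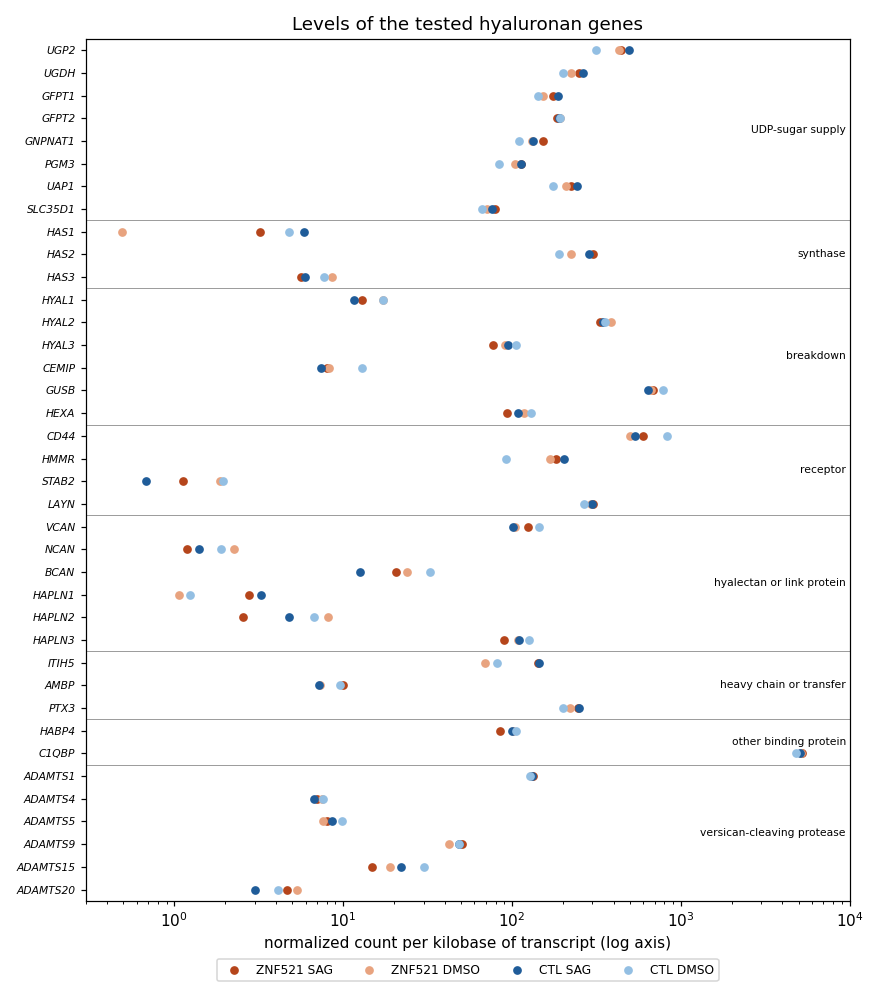
Normalized counts per kilobase of transcript (log axis) of 38 of the 39 tested genes of the wider hyaluronan list, grouped by role, with 1 point per library. Among the synthases HAS2 stood at 191 to 304, and HAS1 and HAS3 stayed below 9.

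The wider list held 53 genes of the pathway, members included, of which 51 were in the table and 39 were tested. CEMIP2 and HAPLN4 were not analysed here, and the 12 below the count minimum had at most 16 raw counts in a library. With SAG, the 38 tested without ITIH5 held 3 higher and 1 lower genes at the study's threshold, and 0 passed the adjusted threshold with edgeR. Besides HAS2 and HMMR, these were HAPLN1, a link protein that ties proteoglycans to hyaluronan, and BCAN, which encodes brevican, a proteoglycan of the brain matrix. HAPLN1 had 13.5 and 15.8 normalized counts in ZNF521 and CTL cells with SAG, against 5.14 and 6.03 in ZNF521 and CTL cells with DMSO. Its log2 fold change was 1.37 (standard error 0.533). It reached the count minimum through the SAG libraries alone, so it had to differ, no p is given for it, and without it 2 genes were higher. BCAN had 67.5 and 41.7 in ZNF521 and CTL cells with SAG, against 79.2 and 107.6 in ZNF521 and CTL cells with DMSO. Its log2 fold change was -0.76 (standard error 0.286, unadjusted p = 0.0202, adjusted p = 0.391 from edgeR), and most of it came from CTL cells, with a ratio of 0.388 (0.259 to 0.569) there and 0.852 (0.615 to 1.18) in ZNF521 cells. The median over the 38 was -0.06, against 0.001 over all genes. Both SAG libraries lay above both DMSO libraries for 14 of them and below for 12, against 25.4% and 22.7% of all genes. With GC offsets 5 lay above and 9 below, and the shares of all genes under these offsets were not computed. HAPLN1 among the 14, and NCAN and HAPLN2 among the 12, reached the count minimum through the higher libraries alone.

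For ZNF521, the 39 tested held 0 higher and 2 lower genes at the study's threshold, and 0 passed the adjusted threshold with edgeR. Besides HAS1 this was ADAMTS15, a protease that cleaves versican. ADAMTS15 had 89.4 and 113.2 normalized counts in ZNF521 cells with SAG and DMSO, against 131.9 and 180.9 in the CTL cells with SAG and DMSO. Both ZNF521 libraries were thus below both CTL libraries, with ratios of 0.678 (0.516 to 0.889) with SAG and 0.626 (0.489 to 0.797) with DMSO. Its log2 fold change was -0.63 (standard error 0.199, unadjusted p = 0.00746, adjusted p = 0.812 from edgeR). The median over the 39 was 0.006, against -0.003 over all genes, and the groups did not overlap for 2 genes above and 5 below, against 13.3% and 13% of all genes. Among the 5 was HAS1, which reached the count minimum through the CTL libraries alone. With GC offsets 4 lay above and 9 below, without shares of all genes under these offsets to set beside them.

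The 8 genes of UDP-sugar supply, enzymes and the transporter gene SLC35D1, had small differences with SAG. In edgeR 0 of them passed the study's threshold, against 6.21% of all genes higher and 5.12% lower. Both SAG libraries lay above both DMSO libraries for 7 of the 8 tested, against 25.4% of all genes. They lay below for GFPT2, one of the enzymes that start the hexosamine pathway, against 22.7% of all genes. The 7 were UGP2, UGDH, GFPT1, GNPNAT1, PGM3, UAP1 and SLC35D1, with log2 fold changes of 0.19 to 0.34. The lowest unadjusted p among the 8 was 0.0654 in edgeR. UGDH, which makes UDP-glucuronic acid, had 755.1 and 804.1 normalized counts in ZNF521 and CTL cells with SAG, against 684.3 and 606.1 in ZNF521 and CTL cells with DMSO. The ratios of the 7 were 1.02 to 1.17 in ZNF521 cells, where 2 intervals lay above 1, and 1.15 to 1.58 in CTL cells, where all 7 did. The share of all genes with such an interval was not computed. The transcripts of the 7 are 38.2% to 41.8% GC, and 6 fell in the lowest of 5 GC classes of equal size over all genes, in which 59% of genes had both SAG libraries above both DMSO libraries. With GC offsets the median of the 8 was 0.02 instead of 0.27, and 1 lay above and 1 below, with no share of all genes computed under them.

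Transcript GC content moved with the SAG difference over all genes. The median log2 fold change was 0.26 in the class of genes lowest in GC (30.7% to 41.0%) and -0.23 in the class highest in GC (58.6% to 75.97%). An unadjusted p of at most 0.05 with a higher level was reached by 22.5% of genes in the lowest class and 0.268% in the highest. HAS2 and HMMR are in the lowest class, ITIH5 (50.03% GC) is in the middle one and HYAL2 (60.1%) and HAS1 (65.2%) are in the highest. With the offsets, which take out the median of each class in each library, HAS2 was at 0.25, HMMR at 0.35 and ITIH5 at 0.93. The library of CTL cells with DMSO deviated most in both outer classes. In the lowest class the median log2 deviation was -0.252 there and -0.003 in ZNF521 cells with DMSO. It was 0.133 and 0.139 in CTL and ZNF521 cells with SAG. In the highest class it was 0.188 and 0.047 in CTL and ZNF521 cells with DMSO, against -0.094 and -0.128 with SAG. What made GC content move with SAG was not tested.

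**Figure D4:**
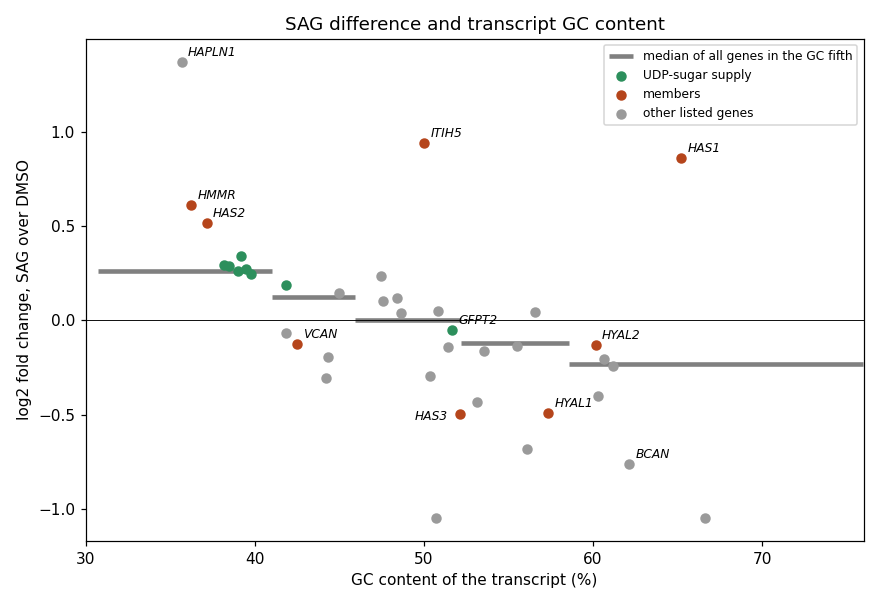
Log2 fold change of SAG over DMSO (y axis) against the GC content of the transcript (x axis) for the 39 tested genes of the wider list, with grey lines for the median of all genes in each of 5 GC classes. HAS2 and HMMR lay above the line of the lowest class (0.26), 6 of the 8 UDP-sugar genes were in that class, and ITIH5 stood at 0.94 where the median of all genes was near 0.

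The genes of most similar pattern were taken for each member that averaged 200 or more normalized counts, among 9160 genes, by the root mean square difference of log2 deviations over the 4 libraries. For HAS2 these were CNIH3 (0.018), SOX2, a transcription factor of neural stem cells (0.023), and LLPH (0.025). SOX2 had 312.2 and 305.6 normalized counts in ZNF521 and CTL cells with SAG, against 237.7 and 203.1 in ZNF521 and CTL cells with DMSO. For HMMR they were HAT1, a histone acetyltransferase (0.0085), POLR2K, an RNA polymerase subunit (0.026), and CWC27 (0.038), each also lowest in CTL cells with DMSO. For ITIH5 they were LIPG, a lipase of the cell surface (0.063), SCN9A, a sodium channel (0.099), and MGLL, a lipase of monoglycerides (0.14). LIPG had 3613 and 4061 normalized counts in ZNF521 and CTL cells with SAG, against 1778 and 2200 in ZNF521 and CTL cells with DMSO. For VCAN they were FOXL2 (0.025), TAP2 (0.025) and SORL1 (0.027), and for HYAL2 HMG20B (0.0051), LRWD1 (0.0086) and MSRB1 (0.0090). This likeness over 4 libraries is a description.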

How the data were processed

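Reads were aligned to hg38 and assigned to genes by the authors with STAR 2.7.0e (version from the submitters' processing notes). The deposited raw counts cover 20363 genes. The signal values of the deposited normalized table are those counts divided by 1 size factor per library (0.887 to 1.19, median of ratios of DESeq2), and it lacks 503 genes with a total count of 1. Annotation, strand setting and read filters are not given in the sources used here.

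Genes with 10 counts or more in 2 or more libraries (14970) were fitted with edgeR 4.0.16 in R 4.3.3 (TMM, glmQLFit, glmQLFTest) with treatment and vector as additive terms and a prior of 11.7 degrees of freedom. Alternatives were RLE factors, library size alone, DESeq2 1.42.0, limma-trend (3.58.1), a fit without the block, no filter or a mean count of 50 or more, omission of each library, and offsets per library and class of transcript GC content (5 classes from GENCODE, 20305 of 20363 genes matched). Intervals were computed with scipy 1.17.1. The edgeR step was tested on simulated data. Upstream windows came from RefSeq (GRCh38.p14), in which 8 of 9 members matched, all but HAS2. Named genes were all members, all genes of the wider hyaluronan list, the checks ZNF521 and GLI1, cell type markers, and the 3 genes of most similar pattern. HHIP, another check, had 78.5 and 54.1 normalized counts in ZNF521 and CTL cells with SAG, against 7.20 and 8.04 in ZNF521 and CTL cells with DMSO. The values of 1 gene of the wider list are not reported here. The members and lists were chosen with earlier results of these data known. The authors' gene set results and the other experiments of the study were not used here.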

Additional observations from a re-analysis of the deposited data

Results flagged for a closer look

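Among the members, VCAN stood out because SAG and ZNF521 each went with a higher count in one setting and a lower count in the other. SAG over DMSO was 1.19 (95% counting interval 1.11 to 1.28) in ZNF521 cells and 0.702 (0.651 to 0.757) in CTL cells, and ZNF521 over CTL was 1.22 (1.14 to 1.32) with SAG and 0.720 (0.669 to 0.774) with DMSO. With 1 library per condition, the difference was not tested. The SAG and ZNF521 reversals come from the same 4 libraries and are a single contrast. VCAN was highest in CTL cells with DMSO, the library that stood apart. CD44 of the wider list went the same way. Its SAG over DMSO was 1.18 (1.13 to 1.24) in ZNF521 cells and 0.646 (0.616 to 0.679) in CTL cells. Its ZNF521 over CTL was 1.11 (1.06 to 1.17) with SAG and 0.607 (0.58 to 0.64) with DMSO. No group held enough libraries to look for a library far from the others of its group.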

How the results depend on the processing

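Of 174 alternatives for single members with a test, 143 kept their direction and side of an unadjusted p of 0.05, 16 reversed, 9 lost that threshold and 6 gained it, and of those for counts of genes 74 stayed within 1.5 times and 23 moved. The SAG difference of ITIH5, which chose the gene, ran from 0.82 to 1.04 over its alternatives. Of the members past the study's threshold for SAG, 1 was left with no block (HAS2) and 1 with GC offsets (HMMR), in place of 2. With a library left out, the SAG log2 fold change ran from 0.40 to 0.62 for HAS2 and from 0.19 to 1.04 for HMMR. For fits without a library the share of all genes passing was not computed, so counts of members passing in them are not given. The ranges below for the wider list have no such share beside them and cannot be read as particular to the list. Their highest counts came without ZNF521 cells with DMSO for SAG and without CTL cells with SAG for ZNF521. In both fits CTL cells with DMSO, the library that stood apart, were alone in their group. In the wider list DESeq2 gave 2 genes for SAG in place of 4, and leaving out a library gave 1 to 17, with 0 to 15 at the adjusted threshold. For ZNF521, a mean count of at least 50, DESeq2 and no block each gave 0 members in place of 1. In the wider list a mean count of at least 50 and no block gave 1 gene in place of 2, DESeq2 gave 0, and leaving out a library gave 0 to 11, with 0 to 5 at the adjusted threshold. The filter on a mean count of at least 50 leaves HAS1 out, so its loss from the ZNF521 counts there was fixed in advance. Fits without a library have the compared factor as their only term, and the lone library of a group is assumed to vary like the others.

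For SAG, HYAL2 turned to 0.098 with GC offsets, and leaving out a library gave -0.13 to 3.01 for HAS1 and -0.36 to 0.11 for VCAN. For ZNF521 the ranges without a library were -0.11 to 0.45 for HAS2, -0.28 to 0.32 for HAS3, -0.23 to 0.36 for HYAL1, -0.085 to 0.12 for HYAL2, -0.20 to 0.91 for HMMR, -0.36 to 0.18 for VCAN and -0.71 to 0.39 for ITIH5. The cause was not tested. With library totals as with size factors, 14 of the 36 ratios had an interval without 1, the SAG ratios that chose ITIH5 being counted in the 36. The share over all genes was not computed. The main fits pair the libraries by the other factor, and the labels carry no replicate numbers for a further block. Depth limits HAS1 and TNFAIP6, with at most 11 and 3 raw counts in a library, and with no replicates neither comparison has an error between cultures.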
